A study of Mus musculus with 2 samples.

Results

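The guide strands of the miR-23a and miR-23b clusters were followed in serum exosomes of tumour-bearing mice. They are mmu-miR-23a-3p, mmu-miR-27a-3p, mmu-miR-24-3p, mmu-miR-27b-3p and mmu-miR-23b-3p (the mouse prefix mmu is left out below), 5 of the 1881 mouse miRNAs on the array, and they were taken by name among the probes that are not controls. Exosomes are small membrane vesicles released by cells. The labels name serum, whereas the study's text speaks of plasma, and the labels are followed here. In the LLC group, mice were injected subcutaneously with 1000000 luciferase-expressing cells of LLC, the Lewis lung carcinoma line. In the MSC+LLC group, LLC cells were injected together with mouse bone marrow mesenchymal stem cells (BMSCs). Per the study's methods, the mice were 6-week-old female C57BL/6 animals and the BMSCs were a purchased preparation from the same strain. Serum was taken at a mean tumour volume of 200 mm3, and 100 ng of RNA per sample was labelled. Each group was 1 array, both on the same slide, so no test between the groups was possible, and how many mice were pooled was not given in the sources used here. Differences between the groups and between positions on the slide cannot be told apart. In exosomes from whole serum, fewer vesicles from a cell type and less of a miRNA per vesicle cannot be told apart.

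A miRNA hairpin is cut into a short duplex, and the guide strand of the duplex is loaded into an Argonaute protein, where its seed (bases 2 to 8) pairs with messenger RNAs and represses them. The miR-23, miR-27 and miR-24 hairpins lie side by side in that order and are transcribed together, and vertebrates carry a pair of such clusters. miR-23a represses glutaminase, miR-27 represses Pparg and restrains fat cell formation, and miR-24 represses cell cycle genes such as E2f2. The clusters are abundant in endothelium, leukocytes and stromal cells, they are often listed among miRNAs that respond to hypoxia, and miR-23a-3p is widely used as a reference in serum.

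The mature sequences are shown because the seeds define the families and because the miR-27 paralogs differ so little. They are from RefSeq (build GRCm38.p6), which matched 4 of the 5 guide strands by name, and the seed is in capitals.
miR-23a-3p: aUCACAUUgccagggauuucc
miR-27a-3p: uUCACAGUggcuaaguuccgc
miR-27b-3p: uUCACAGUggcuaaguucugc
miR-24-3p: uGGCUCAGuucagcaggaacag
miR-27a-3p and miR-27b-3p are both 21 bases long, share the seed and differ at 1 position, C19U, counted from the 5′ end with the base of miR-27a-3p first. miR-24-3p has the same 22 bases at both of its genes, so its signal cannot be divided between the clusters. On chromosome 8 the hairpins Mir23a, Mir27a and Mir24-2 span 404 bases of the plus strand (chr8:84208518-84208921), with gaps of 79 and 56 bases between them. On chromosome 13, Mir23b, Mir27b and Mir24-1 span 792 bases, also on the plus strand (chr13:63300484-63301275), with gaps of 154 and 423 bases.

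The MSC+LLC array was dimmer, with a 75th percentile of 250.3 intensity units against 2883 on the LLC array over the probes detected on both. Detection required over 50% of a probe's spots to be well above background, and the lowest detected probe lay at 20.9 units in LLC and 18.8 in MSC+LLC. For brevity, LLC and MSC+LLC stand for the array of each group. Signals are given as mean ± SD over the n spots of a probe, which is technical error only. Ratios below are scaled by that percentile unless another scaling is named. Red cell miR-451a and hepatocyte miR-122-5p were measured on both arrays. Of the 5 mesenchymal stromal markers, 3 were detected in LLC and 2 in MSC+LLC, beside 26.7% and 13.7% of all miRNAs.

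All 5 guide strands were detected on both arrays. Of all 1881 miRNAs, 26.7% were detected in LLC, 13.7% in MSC+LLC and 12.8% in both. After scaling, none was at least 2-fold higher or lower in the MSC+LLC group, where 27.1% of the 240 miRNAs detected on both arrays had risen past that fold and 11.2% had fallen past it. The log2 ratios of MSC+LLC over LLC ran from -0.10 to 0.28 with a median of -0.05, and the median over the 240 miRNAs was 0.15. miR-23a-3p was the highest at 0.28, and it was the only member whose ratio was larger than its spot-to-spot SD. The other 4 ratios lay within their own spot-to-spot SD of 0. This SD is the spread of single spots and not the error of a mean over spots, which is smaller. Counted from the median of the 240 instead, miR-23a-3p was at 0.13, within its SD of 0.14. By that count miR-27a-3p at -0.20 and miR-24-3p at -0.21 lay beyond their SDs of 0.16 and 0.12. miR-27b-3p at -0.05 and miR-23b-3p at -0.25 lay within theirs, 0.15 and 0.26.

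**Figure D1:**
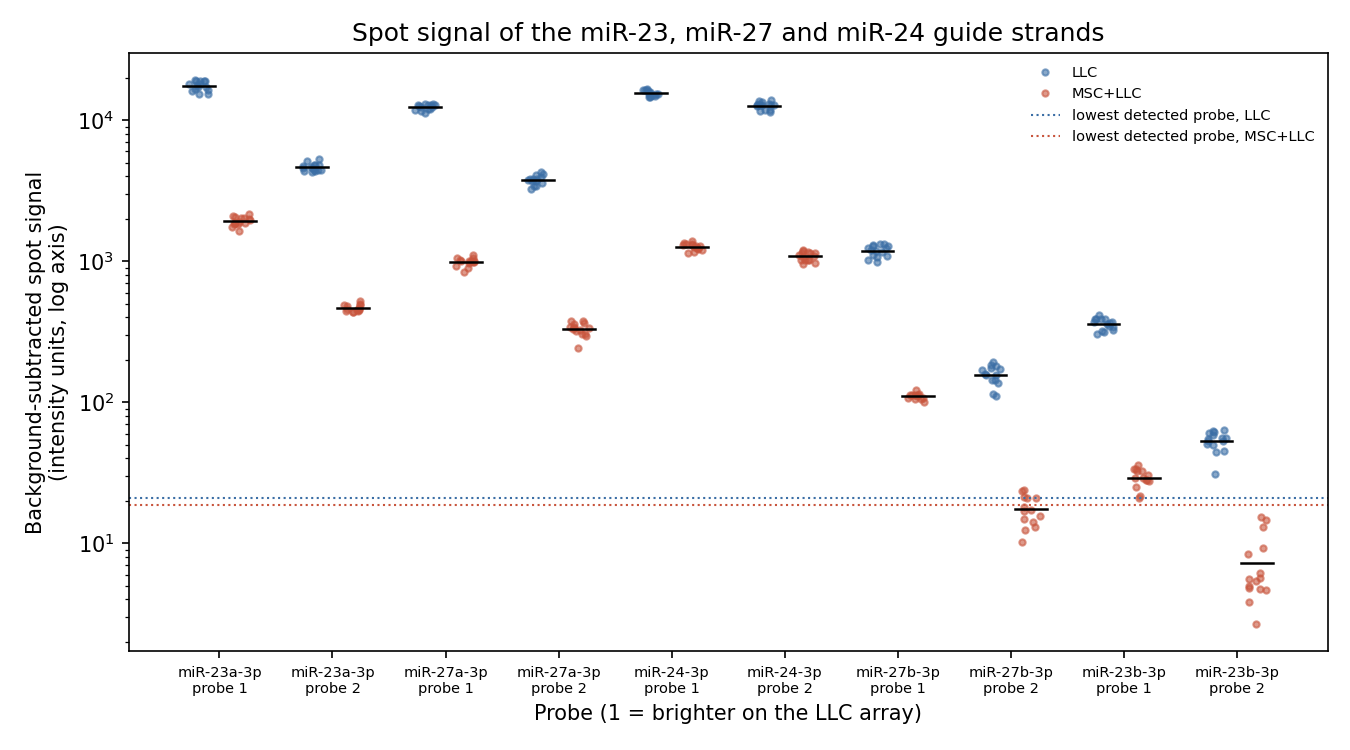
Signal of every kept spot (intensity units, log axis) for both probes of each guide strand, blue for the LLC array and red for the MSC+LLC array, with black bars at the mean and dotted lines at the lowest detected probe of each array. Before scaling every LLC spot lies above every MSC+LLC spot of the same probe, and the dimmer probes of miR-27b-3p and miR-23b-3p fall under the detection limit on the MSC+LLC array. That array was dimmer as a whole, and the spots of other miRNAs were not compared in this way.

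In the chromosome 8 cluster, all probes were well above background in every spot of both arrays. miR-23a-3p, at the head of the cluster, gave 17539 ± 1333 intensity units (n = 15 spots) with its brighter probe in LLC and 1928 ± 140.5 (n = 15 spots) in MSC+LLC. The other probe of miR-23a-3p gave 4646 ± 302.2 (n = 15 spots) and 466.9 ± 25.6 (n = 14 spots). Both probes were thus dimmer on the MSC+LLC array, but by less than the array as a whole. In units of the 75th percentile the brighter probe lay at 6.08 ± 0.46 (SD over spots) in LLC and 7.70 ± 0.56 in MSC+LLC, and the 2 ranges of spots overlapped only between 6.52 and 6.67. The scaled log2 ratio of miR-23a-3p was 0.28 with a spot-to-spot SD of 0.14 (1.21-fold higher), and its probes gave 0.34 and 0.21.

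The next hairpin gives miR-27a-3p, the repressor of Pparg. Its brighter probe gave 12399 ± 565.7 intensity units (n = 14 spots) in LLC and 990.4 ± 66.9 (n = 14 spots) in MSC+LLC. Its dimmer probe gave 3775 ± 291.8 (n = 14 spots) and 330.1 ± 34.4 (n = 15 spots). The scaled log2 ratio of miR-27a-3p was -0.05 with a spot-to-spot SD of 0.16, and the probes lay on either side of 0, at -0.12 and 0.01. In units of the 75th percentile, its brighter probe was at 4.30 in LLC and 3.96 in MSC+LLC, with overlapping spots.

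miR-24-3p, which both clusters make, was measured by a pair of probes. The brighter one gave 15550 ± 681.5 intensity units (n = 14 spots) in LLC and 1272 ± 68.9 (n = 15 spots) in MSC+LLC. The other gave 12712 ± 748 (n = 15 spots) and 1083 ± 76.5 (n = 15 spots). The scaled log2 ratio of miR-24-3p was -0.06 with a spot-to-spot SD of 0.12, and its probes lay close together, at -0.09 and -0.03.

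The paralogs of the chromosome 13 cluster rested on 1 probe each. For miR-27b-3p, the brighter probe gave 1189 ± 110.6 intensity units (n = 15 spots) in LLC and 110.3 ± 5.43 (n = 12 spots) in MSC+LLC. Its dimmer probe gave 156.9 ± 24.6 (n = 14 spots) in LLC and 17.4 ± 4.30 (n = 14 spots) in MSC+LLC, where 35.7% of its spots were well above background, so it was not detected there. The scaled log2 ratio of miR-27b-3p was 0.10, less than the spot-to-spot SD (0.15).

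For miR-23b-3p, the brighter probe gave 359.5 ± 32.9 intensity units (n = 15 spots) in LLC and 29.2 ± 4.43 (n = 14 spots) in MSC+LLC. Its dimmer probe gave 53.4 ± 8.46 (n = 15 spots) and 7.28 ± 4.01 (n = 15 spots), and on the MSC+LLC array none of these spots was well above background. The negative control spots of that array gave 2.93 ± 2.97. The scaled log2 ratio of miR-23b-3p was -0.10, and its spot-to-spot SD of 0.26 was the widest of the members. The undetected probes of miR-27b-3p and miR-23b-3p gave no bound, because after scaling their LLC signal lay under the detection limit of the MSC+LLC array. The brightness of different probes was not compared, since probes bind their targets with different strength.

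**Figure D2:**
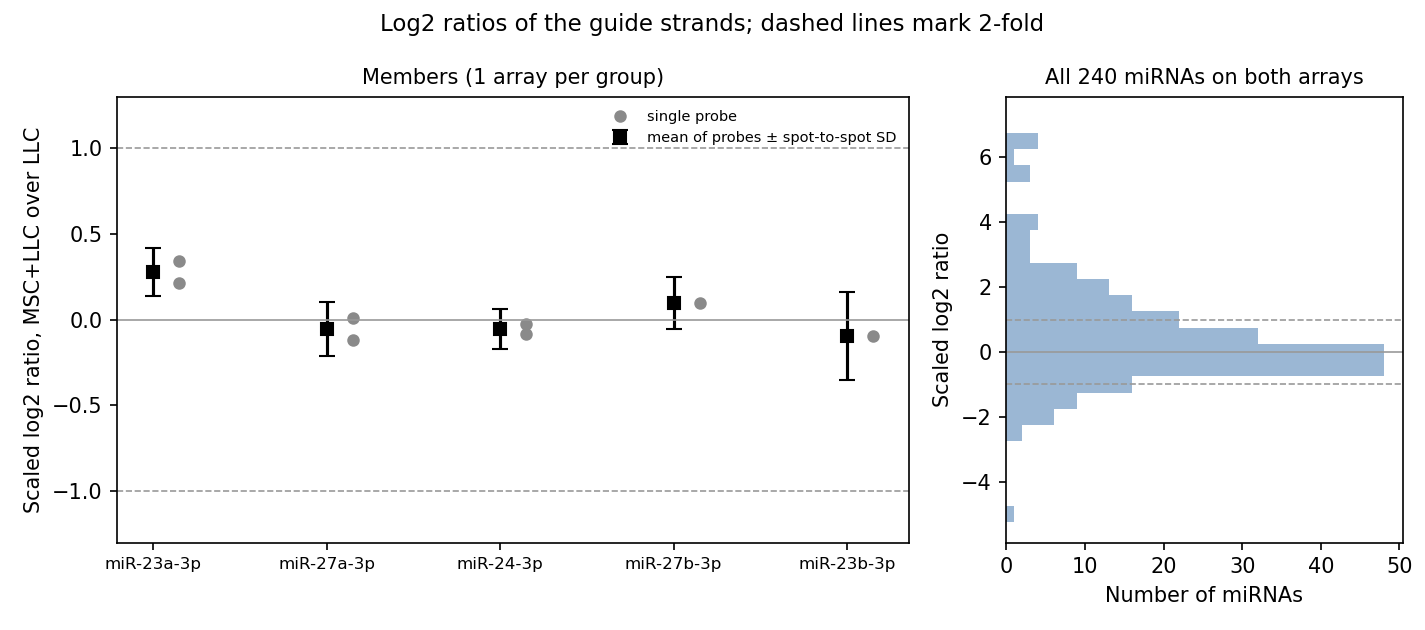
Left, scaled log2 ratio of MSC+LLC over LLC for each guide strand (squares, mean of its detected probes with the spot-to-spot SD as bars, and grey points for single probes); right, the same ratio for all 240 miRNAs measured on both arrays, as a histogram. All 5 squares lie between -0.10 and 0.28, inside the dashed lines at 2-fold, while all miRNAs run from -4.96 to 6.74.

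Before scaling, the guide strands were all dimmer on the MSC+LLC array, and by nearly the same factor. The 8 probes detected on both arrays were 9.10-fold to 12.5-fold dimmer, and the median log2 ratio of the 5 guide strands was -3.58, against -3.38 over all 240 miRNAs. For all 10 probes, each spot on the LLC array was brighter than each spot in MSC+LLC, the array that was dimmer as a whole. Scaled, the spots of the 2 arrays overlapped for all 8 probes. The choice of scaling therefore set whether the clusters appear level or lower in the MSC+LLC group. Neither count of probes was computed for other miRNAs, so neither sets the clusters apart from the rest of the array. Under the 75th percentile of all probes, 4 of the 5 were at least 2-fold lower (52.9% of all measured miRNAs), and without scaling all 5 were (90.4%). That percentile also takes in the probes of undetected miRNAs, since 26.7% of all miRNAs were detected in LLC and 13.7% in MSC+LLC. The hybridization spike-ins, RNAs added in fixed amounts at hybridization, differed between the arrays by a log2 ratio of 0.04, and the labelling spike-ins, added before labelling, by -1.32. Scaled to the labelling spike-ins, all 5 guide strands were at least 2-fold lower (75% of all measured miRNAs), with log2 ratios from -2.31 to -1.93, and scaled to both kinds of spike-in all 5 were too (85%). Scaled to the hybridization spike-ins, all 5 were again lower (90.4%), with log2 ratios from -3.66 to -3.29. Dividing by a constant shifts all miRNAs alike, so the median of the 5 lay 0.20 below that of all measured miRNAs each time. Counted from the median of all measured miRNAs, the median of the 5 was at -0.06 with quantile normalization. It was at -0.72 with normexp background correction and at 0.0075 under the scanner's own detection flag. With normexp background correction, which raised the median of all measured miRNAs by 0.69 to 0.84, miR-23b-3p alone was at least 2-fold higher (46.2% of all measured miRNAs).

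**Figure D3:**
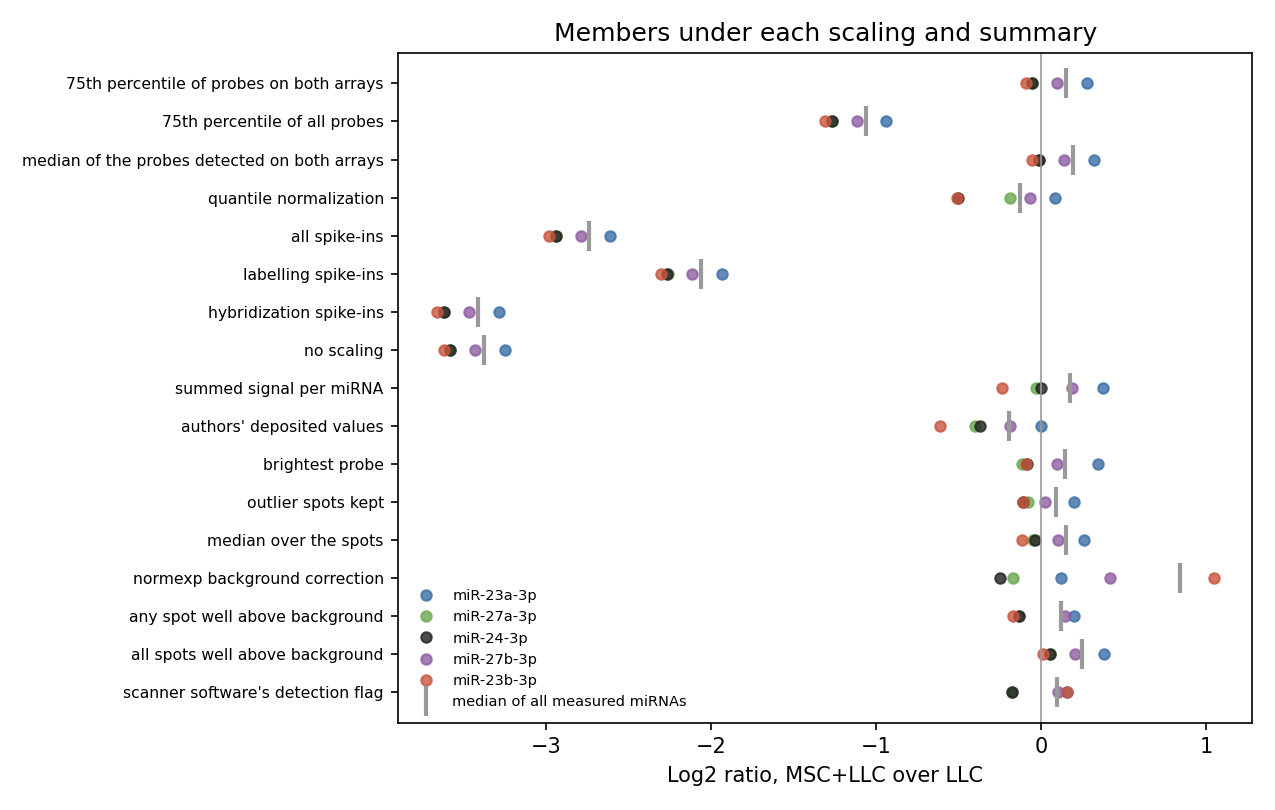
Log2 ratio of MSC+LLC over LLC of the guide strands (coloured points) and the median of all measured miRNAs (grey bars) under each scaling, summary and detection rule. The points move together with the grey bar from near 0 to below -3 for the hybridization spike-ins and for no scaling, and they spread out most with normexp background correction, where miR-23b-3p lies at 1.04.

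Differences between members do not change when an array is multiplied by a constant, so they can be read without settling the scaling. The paralogs miR-27b-3p and miR-27a-3p differed by 0.15 in log2 ratio, within the spot-to-spot SD of that difference, 0.22, but by 0.59 with normexp background correction. miR-23b-3p lay 0.37 below miR-23a-3p (1.29-fold), which was larger than the spot-to-spot SD of 0.29, and the brighter and dimmer probes of miR-23a-3p gave differences of -0.44 and -0.31. This difference rests on 1 probe of miR-23b-3p. Under the scanner's own detection flag, which also admits the dimmer probe, it was 0.0015, and with normexp background correction it turned to 0.93. Whether the probes of a paralog also bind the other paralog was not tested, and probe sequences were not used here.

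Among cluster mates on chromosome 8, miR-27a-3p and miR-24-3p had nearly the same log2 ratio, differing by -0.0018 with a spot-to-spot SD of 0.20. Both lay below miR-23a-3p, by 0.33 each (spot-to-spot SD 0.21 for miR-27a-3p and 0.18 for miR-24-3p), and the differences between single probes ran from -0.46 to -0.20 for miR-27a-3p and from -0.43 to -0.24 for miR-24-3p. Each probe of miR-23a-3p thus had a higher ratio than each probe of its cluster mates. With quantile normalization, however, miR-24-3p was at -0.31 from miR-27a-3p and at -0.59 from miR-23a-3p. On chromosome 13, miR-27b-3p lay 0.19 above miR-23b-3p, within the spot-to-spot SD of 0.30. miR-24-3p lay 0.04 above miR-23b-3p and, at -0.15, below miR-27b-3p, both within the spot-to-spot SD (0.28 and 0.19). These directions depended on the processing for miR-23b-3p. With normexp, miR-27b-3p was at -0.63 and miR-24-3p at -1.29 from miR-23b-3p, and miR-24-3p was at -0.67 from miR-27b-3p. Under the scanner's own detection flag, miR-27b-3p was at -0.05 and miR-24-3p at -0.33 from miR-23b-3p.

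At the setting used for the ratios, these distances were set beside those of other pairs of miRNAs measured on both arrays. The 6 pairs of cluster mates had a median absolute difference of 0.17 in log2 ratio, and the highest was 0.33. They include pairs with miR-24-3p, whose signal cannot be divided between the clusters. Without it, miR-27a-3p was at -0.33 from miR-23a-3p and miR-27b-3p at 0.19 from miR-23b-3p. Over 35 other pairs whose genes lie within 10 kb on the same strand, the median was 0.61 (quartiles 0.40 and 1.46). Over 64 other pairs that share a seed the median was 0.54 (quartiles 0.26 and 0.86), beside 0.15 and 0.37 for the paralogs here. The pairs within 10 kb covered 42 miRNAs and those that share a seed 49. RefSeq gave a mature sequence by name for 197 of the 240 measured miRNAs, so pairs may be missing from these sets. Over all 28670 other pairs, which include those of 1 guide strand with another miRNA, the median was 1.23. Cluster mates here lay farther apart under other processing, at differences as large as -1.29 with normexp and -0.59 with quantile normalization, for which the other pairs were not computed. Pairs share miRNAs, so these are descriptions and not independent points.

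**Figure D4:**
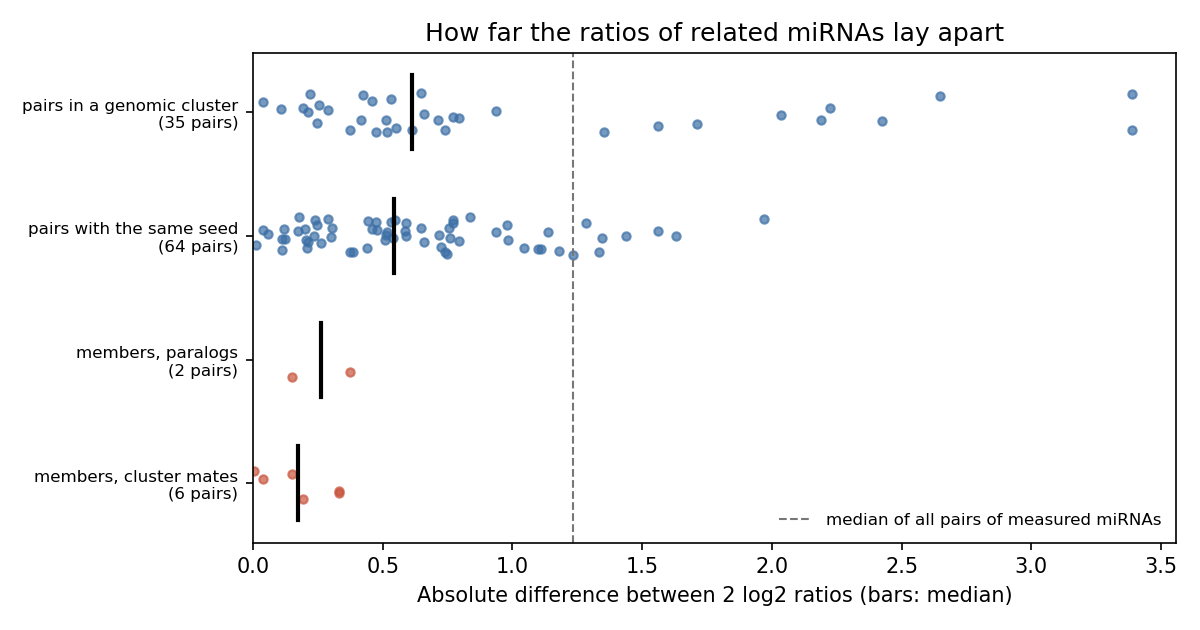
Absolute difference in log2 ratio between 2 related miRNAs, as points, for the guide strands (red) and for other miRNAs measured on both arrays (blue), with black bars at the medians and a dashed line at the median of all pairs. The 8 red points lie at 0.37 or below, and the blue pairs in genomic clusters reach 3.39.

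The opposite arms of the same hairpins, usually discarded, were mostly not detected, beside 26.7% of all miRNAs detected in LLC and 13.7% in MSC+LLC. Of the 6 (miR-23a-5p, miR-27a-5p, miR-24-2-5p, miR-23b-5p, miR-27b-5p and miR-24-1-5p), only miR-24-2-5p was detected, on the LLC array alone. Its probes gave 31.7 ± 7.35 (n = 14 spots) and 22.0 ± 4.82 intensity units (n = 13 spots) there, close to the detection limit, and 2.08 ± 3.54 and -0.83 ± 4.57 (n = 15 spots each) on the MSC+LLC array. The brightest probe of miR-23a-5p came near the limit at 21.2 ± 2.76 (n = 7 spots), with 28.6% of its spots well above background. A single detected arm was the rule elsewhere too. Among other hairpins with both arms on the array and at least 1 arm detected, 89.5% (256 of 286) had only 1 arm detected in LLC and 93.8% (135 of 144) in MSC+LLC.

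The miR-24 genes also carry miR-3074 hairpins on the opposite strand of the DNA. The Mir24-2 hairpin is shown with the 5p and 3p arms of miR-24 in capitals, beside the miR-3074 products, in which the seed is in capitals.
Mir24-2 hairpin: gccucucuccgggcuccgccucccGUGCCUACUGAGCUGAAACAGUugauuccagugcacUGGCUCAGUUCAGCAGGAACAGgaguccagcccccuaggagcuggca
miR-3074-2-3p: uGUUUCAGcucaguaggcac
miR-3074-5p: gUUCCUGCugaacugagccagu
All 20 bases of miR-3074-2-3p are complementary to miR-24-2-5p, and 20 bases of miR-3074-5p in a row to miR-24-3p. The brighter probe of miR-3074-2-3p gave 32.0 ± 1.97 intensity units (n = 10 spots) in LLC and -0.12 ± 3.38 (n = 15 spots) in MSC+LLC. Its other probe gave 14.1 ± 4.09 (n = 15 spots) in LLC, with none of these spots well above background. Both strands of this arm were thus detected on the LLC array alone and near its limit. After scaling, their LLC signals lay under the detection limit of the MSC+LLC array, so they gave no bound on a difference. The probes of miR-3074-5p stayed below 0 on both arrays, between -4.93 and -2.03 units, while the complementary miR-24-3p was bright on both. miR-3074-1-3p was detected on neither array.

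Other miRNAs share the seed of miR-24-3p, and they were examined because they would pair with the same short target sites. miR-6369 has the same first 13 bases.
miR-6369: uGGCUCAGuucaguguuggugag
Both of its probes were at background, at 0.60 ± 3.09 and 0.35 ± 3.03 intensity units (n = 15 spots each) on the LLC array. miR-5124b, miR-6410 and miR-6413, which also carry the seed, were detected on neither array. The seed of miR-128-3p (bases 2 to 8) is CACAGUG, which miR-27a-3p and miR-27b-3p hold shifted by 1 base.
miR-128-3p: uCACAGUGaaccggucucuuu
The brighter probe of miR-128-3p gave 4200 ± 285.2 and 297.5 ± 14.2 intensity units (n = 15 spots each) in LLC and MSC+LLC. Its scaled log2 ratio was -0.33 with a spot-to-spot SD of 0.15, below those of miR-27a-3p and miR-27b-3p.

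The relation of miR-451a, the most abundant red cell miRNA, to miR-23a-3p is used in serum work as an index of lysed red cells, because miR-23a-3p is little affected by them. The log2 ratio of miR-451a was 1.06 with a spot-to-spot SD of 0.14, which is 0.78 above that of miR-23a-3p (spot-to-spot SD 0.20, 1.72-fold). The difference was above 0 for all 4 pairs of probes, from 0.43 to 1.14, but it was -0.29 after quantile normalization. All 4 members of the red cell list were measured, 2 of them higher and 2 lower by at least 2-fold (27.1% and 11.2% of all measured miRNAs), with miR-486a-5p at 1.66 and miR-144-3p and miR-144-5p both at -2.33, and the median was -0.63. Their part in the ratios of the guide strands was not tested.

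Of the other marker lists, the 2 platelet and leukocyte miRNAs measured on both arrays (of 4) were miR-223-3p at 0.14 and miR-142a-3p at -2.25. Of the 2 endothelial markers, miR-126a-3p was at -0.51 and miR-126a-5p was detected on the LLC array only. The hepatocyte marker miR-122-5p was at 0.78, and of the 5 mesenchymal stromal markers miR-199a-3p was at 0.57 and miR-214-3p at 0.82, the others not being measured on both arrays. The guide strands, from -0.10 to 0.28, lay around the median of all measured miRNAs (0.15). Of the markers in this paragraph measured on both arrays, miR-223-3p lay within that range and the others outside it, on both sides. The cells of origin of the guide strands were not tested.

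Since the clusters are counted among hypoxia-responsive miRNAs, the other members of a commonly cited hypoxia list were set beside them. Of these 8, 7 were detected in LLC and 5 in MSC+LLC, beside 26.7% and 13.7% of all miRNAs. None of the 5 measured on both was at least 2-fold higher and 2 were at least 2-fold lower, beside 27.1% and 11.2% of all measured miRNAs, with a median log2 ratio of -0.36, against -0.05 for the guide strands and 0.15 over all measured miRNAs. miR-210-3p, the canonical hypoxia miRNA, was at 0.27, next to miR-23a-3p. miR-26a-5p was at -0.18 and miR-107-3p at -0.36, whereas miR-103-3p and miR-26b-5p were lower, at -1.50 and -2.15. miR-181a-5p, miR-181b-5p and miR-181c-5p were not measured on both arrays.

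The miRNAs with the most similar log2 ratio to the median of the guide strands, over the 2 arrays and among those with at least 2 detected probes on the same side of 0, were miR-494-3p (-0.07), miR-188-5p (-0.09), miR-674-3p (-0.13), miR-361-5p (0.05) and miR-8101 (-0.17). The window from the lowest to the highest guide strand also held 39 of the 235 other measured miRNAs.

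The values deposited by the authors, the log2 of the summed signal per miRNA less a constant per array, were also read for the guide strands. miR-23a-3p stood at 5.51 on both arrays. miR-27a-3p was at 5.05 in LLC and 4.65 in MSC+LLC, miR-24-3p at 5.86 and 5.48, miR-27b-3p at 1.47 and 1.28, and miR-23b-3p at -0.24 and -0.85. The constants were 7.02 and 3.48, and the differences between arrays ran from -0.61 for miR-23b-3p to -0.00067 for miR-23a-3p, all within 2-fold.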

How the data were processed

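Serum exosomal RNA of 1 LLC and 1 MSC+LLC sample, grouped by title, was hybridized to 1-colour (Cy3) Agilent mouse miRNA arrays. Per the file headers, the authors extracted the scans with Feature Extraction 11.5.1.1 (the labels list 10.7), and the deposited spot intensity is background-subtracted and detrended on a linear scale. The deposited series table holds log2 values that the authors made with GeneSpring GX 11.0. They equal the log2 of the summed signal less a constant per array, undetected miRNAs being set to 0.1 before, and the columns' medians are -10.34 (LLC) and -6.80 (MSC+LLC). The array design names another genome build than RefSeq, whose coordinates are given only for its own sequences. The members and lists were chosen with earlier results of these data known.

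Control spots and outlier spots (3.04% in LLC, 2.95% in MSC+LLC) were removed, and no spot was saturated. Spots were averaged per probe, each array was scaled to its 75th percentile over jointly detected probes, and log2 ratios were averaged over a miRNA's jointly detected probes. The spot-to-spot SD of a log2 ratio was propagated from the spot SDs and was not divided by the number of spots. It is technical and leaves out the spread between mice. The named miRNAs were the members, the other products of their hairpins, seed sharers, the hypoxia and marker lists, and the 5 nearest in log2 ratio. No test was possible with a single array each, and the number of arrays limits the precision. Alternatives covered scaling, probe summary, spots, detection, background and fold threshold. The functions were tested on simulated data. R 4.3.3 with limma 3.58.1 was used for normexp (offset 50, on median pixel signals) and Python 3.11.15 with numpy 2.4.6 and pandas 2.3.3 for the rest.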

Additional observations from a re-analysis of the deposited data

How the results depend on the processing

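No paired analysis was possible because a single array stood for each group. Log2 values below differ from the reported ones by over 1 spot-to-spot SD. The most specific probe was not run, since probe sequences were not used here. All 5 guide strands stayed detected on both arrays under each of the 3 other detection rules. Of all 1881 miRNAs, 298 were measured on both arrays with any spot well above background. With all spots well above background 198 were, and with the scanner's own flag 295. At the scaling used for the ratios, no guide strand passed a threshold of 1.5-fold or 4-fold. The shares of all miRNAs past these 2 thresholds were not computed. Signal over background limits miR-27b-3p and miR-23b-3p to 1 probe each.

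Values are given in the order miR-23a-3p, miR-27a-3p, miR-24-3p, miR-27b-3p and miR-23b-3p, and the shift by a constant follows from each scaling's construction. The log2 ratios were -0.94, -1.27, -1.27, -1.12 and -1.31 with the 75th percentile of all probes (median -1.27, 4 lower by 2-fold). They were -2.61, -2.94, -2.94, -2.79 and -2.98 with all spike-ins (median -2.94, 5 lower). With the labelling spike-ins they were -1.93, -2.26, -2.27, -2.11 and -2.31 (median -2.26, 5 lower), and with the hybridization spike-ins -3.29, -3.62, -3.62, -3.47 and -3.66 (median -3.62, 5 lower). Without scaling they were -3.25, -3.58, -3.58, -3.43 and -3.62 (median -3.58, 5 lower). The deposited values gave -0.00067, -0.40, -0.37, -0.19 and -0.61 (median -0.37).

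Quantile normalization gave 0.084 for miR-23a-3p, -0.50 for miR-24-3p, -0.067 for miR-27b-3p and -0.51 for miR-23b-3p. It moved miR-24-3p to -0.59 from miR-23a-3p, -0.31 from miR-27a-3p and -0.44 from miR-27b-3p, and miR-451a to -0.29 from miR-23a-3p. The cause was not tested. With the brightest probe miR-451a lay 1.01 above miR-23a-3p.

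Normexp adds an offset that is large beside the dim probes. It gave 0.12 for miR-23a-3p, -0.25 for miR-24-3p, 0.41 for miR-27b-3p and 1.04 for miR-23b-3p (median 0.12, 1 higher by 2-fold). miR-23b-3p then lay 0.93 above miR-23a-3p, and miR-27b-3p 0.59 above miR-27a-3p. miR-27b-3p was at -0.63 and miR-24-3p at -1.29 from miR-23b-3p, and miR-24-3p at -0.67 from miR-27b-3p. Under the scanner's own detection flag, miR-24-3p was at -0.18 and at -0.33 from miR-23b-3p, and miR-23b-3p at 0.0015 from miR-23a-3p, as the dimmer probe of miR-23b-3p then enters.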
